A study of Mus musculus with 8 samples.

Results

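The genes described here encode receptors by which myeloid cells sense damage and microbes, together with one of their signalling adaptors. They are the C-type lectins Clec4a2, Clec4d, Clec4e, Clec4n, Clec5a and Clec7a, the Trem receptors Trem1 and Trem3, the scavenger receptor Olr1 and the adaptor Tyrobp. They were taken from the deposited expression table by gene symbol, which gave 10 of 54532 listed genes, 1 row for each. All 10 passed the filter on low values.

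The values come from RNA sequencing of whole mouse livers after 1 h of warm ischemia and 6 h of reperfusion (I/R), with 4 METTL3-HKD mice and 4 METTL3-Flox mice. METTL3-HKD mice carry METTL3 flox/- and Alb-iCre, a Cre recombinase under the albumin promoter, which is active in hepatocytes and not in myeloid cells. They are heterozygous, so METTL3, a methyltransferase that writes m6A on RNA, is reduced in the liver and not removed. METTL3-Flox mice come from the same litters and carry METTL3 flox/flox, so both groups hold floxed alleles. Both groups underwent I/R, the ages of the sequenced mice are not given in the sources used here, and livers without I/R were not analysed here. The comparison therefore asks how the receptor genes differed between genotypes within injured livers.

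C-type lectin receptors and Trem receptors are surface proteins of neutrophils, monocytes, macrophages and dendritic cells. Most activating members have no signalling tail of their own and pair with an adaptor, Tyrobp (DAP12) or Fcer1g, whose phosphorylated tail recruits the kinase Syk. Syk then acts through Card9, Bcl10 and Malt1 to induce cytokine and chemokine genes, while inhibitory members such as Clec4a2 recruit phosphatases instead.

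The promoters were examined because several of these genes differed between the groups together. RefSeq promoter sequences on GRCm38.p6 were matched for 7 of the 10 genes, and not for Clec4n, Trem3 and Tyrobp. The 250 bases before each start were searched on both strands for GAGGAA, a core bound by ETS factors such as PU.1, and for TGANTCA, the AP-1 site, a choice made after the sequences and the expression results had been seen. GAGGAA or its reverse complement lay in 6 of the 7 (Clec4d, Clec4e, Clec5a, Clec7a, Trem1 and Olr1), against 23.3% of 32851 promoter windows of the same length. TGANTCA lay in 1 of the 7, that of Olr1, against 6.75% of windows. The C/EBP letters TTNNGNAA lay in 5 of the 7 against 36.8% of windows, and the NF-kB motif in 0 of the 7 against 0.356%. Stretches of 30 bases around GAGGAA matches in these 6 promoters are shown 5′ to 3′ on the strand of the gene, with each match in capitals. In the stretch of Olr1, TGAGTCA is also in capitals.
Clec4d, chr6:123261857-123261886, plus strand: caccaacttcTTCCTCtgttctaaagcaaa
Clec4e, chr6:123289910-123289939, minus strand: ccttgtgcaagaGAGGAAattctgacttaa
Clec5a, chr6:40585869-40585898, minus strand: ctgaaaggaaccTTCCTCcttcagaagtag
Clec5a, chr6:40585843-40585872, minus strand: gtagaagttcccTTCCTCtttttgccccgc
Clec7a, chr6:129472858-129472887, minus strand: aaacaggatctaGAGGAAaaaagggaaatt
Trem1, chr17:48232565-48232594, plus strand: attttcagagaaGAGGAAactgaggtccca
Olr1, chr6:129507214-129507243, minus strand: ctTTCCTCccgcgacggtTGAGTCAtcctc

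The match shown for Clec4e lay 56 bases before its start, those of Clec5a 81 and 55 bases, and those of Clec4d, Trem1 and Olr1 240, 162 and 76 bases. The match of Clec7a lay 96 or 90 bases before its start, for the 2 starts that RefSeq lists, and the AP-1 letters of Olr1 lay 60 bases before it. The matches describe the letters of these windows and are not evidence of binding. Clec7a, which holds the same core, was not among the genes that passed the test below.

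Of the 10 genes, 6 were upregulated in METTL3-HKD mice compared to METTL3-Flox mice, namely Trem1, Trem3, Clec5a, Clec4e, Clec4d and Olr1, and 0 were downregulated. Calls needed an adjusted p under 0.05 together with a difference of 1 or more on the log2 scale. The test was limma's moderated test on log2(FPKM + 0.1), where FPKM are fragment counts scaled to library size and expressed per kilobase of the gene, and p-values were adjusted by Benjamini-Hochberg across the 16645 tested genes. By the same rule 4.70% of all tested genes were called higher and 1.52% lower, and 9.05% and 6.63% passed on the adjusted p alone at any fold. The FPKM of the same 6 genes did not overlap between the groups, with every METTL3-HKD liver above every METTL3-Flox liver, a pattern found in 12.7% of all tested genes, while 9.95% lay below in every METTL3-HKD liver. For each of the 6, the two-sided exact permutation test gave p = 0.0286, the smallest that 4 livers against 4 allow. Olr1 and Clec5a, with METTL3-Flox means of 0.0263 and 0.0677 FPKM, passed the filter of a mean of 0.1 FPKM only through their METTL3-HKD values. Their calls and lack of overlap are therefore not independent of that filter. Tyrobp, Clec4n, Clec7a and Clec4a2 were not called, and their groups overlapped. Since whole livers were sequenced, more cells of a type and more RNA per cell cannot be told apart.

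**Figure D1:**
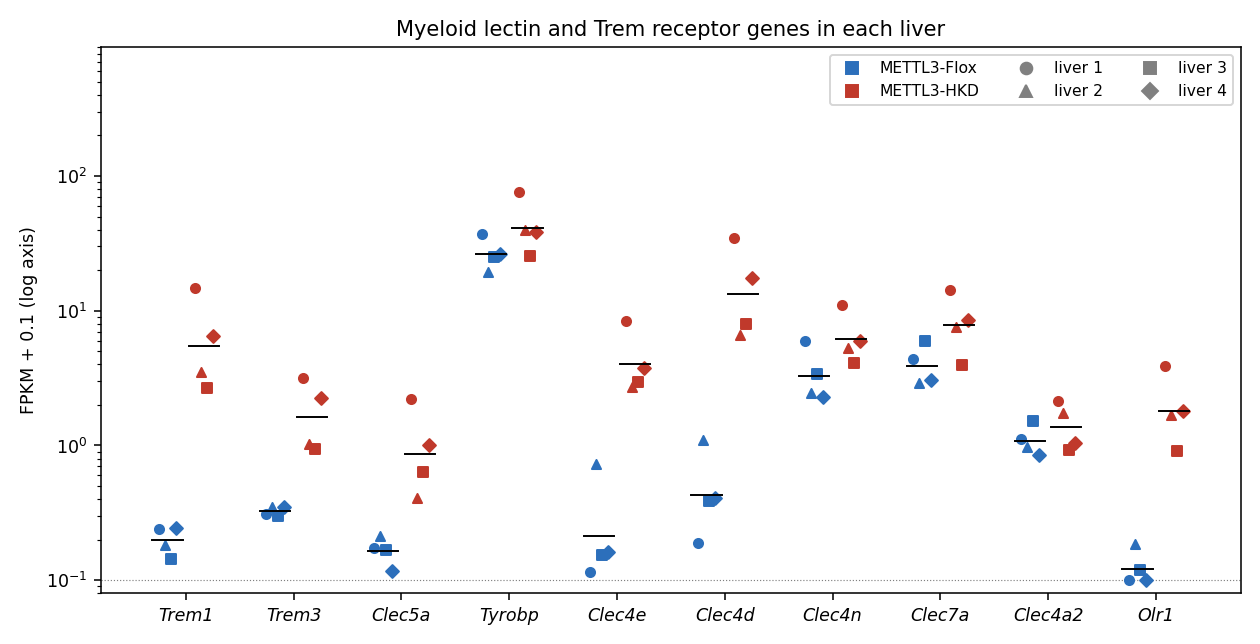
FPKM + 0.1 on a log axis for the 10 genes in each liver, with METTL3-Flox in blue, METTL3-HKD in red, a marker shape for each liver number and a black line at the mean of the log values. The red points of Trem1, Trem3, Clec5a, Clec4e, Clec4d and Olr1 all lie above the blue points, METTL3-HKD liver 1 is the highest of the 8 livers in all 10 genes, and the groups overlap for Tyrobp, Clec4n, Clec7a and Clec4a2.

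Trem1, an activating receptor of neutrophils and monocytes that amplifies inflammatory responses through Tyrobp, lies on chromosome 17 (ENSMUSG00000042265, chr17:48232768-48246924, plus strand, GRCm38). For Trem1, METTL3-HKD livers 1 to 4 held 14.8, 3.41, 2.57 and 6.43 FPKM, against 0.141, 0.0826, 0.0439 and 0.145 FPKM for METTL3-Flox livers 1 to 4. The lowest METTL3-HKD liver was far above the highest METTL3-Flox liver. The means were 6.79 ± 5.57 and 0.103 ± 0.0487 FPKM (SD, n = 4 each), and the groups differed by 4.79 on the log2 scale (SE 0.487, adjusted p = 0.0019 from limma). The METTL3-Flox values rest on 2 to 7 reads per liver, and the METTL3-HKD values on 139 to 890.

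Trem3, an activating mouse receptor that also pairs with Tyrobp, is the next protein-coding gene on that chromosome (ENSMUSG00000041754, chr17:48247777-48258841, plus strand). For Trem3, METTL3-HKD livers 1 to 4 held 3.05, 0.925, 0.835 and 2.17 FPKM, against 0.212, 0.249, 0.199 and 0.250 FPKM for METTL3-Flox livers 1 to 4. The METTL3-Flox livers lay close to each other, on 3 to 4 reads each, and below all METTL3-HKD livers. Its log2 fold change was 2.31 (SE 0.380, adjusted p = 0.00821 from limma), and the METTL3-HKD values rest on 15 to 61 reads.

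Clec5a, a lectin receptor of myeloid cells that signals through Tyrobp, lies on chromosome 6 apart from the lectin clusters (ENSMUSG00000029915, chr6:40574894-40585821, minus strand). For Clec5a, METTL3-HKD livers 1 to 4 held 2.10, 0.310, 0.533 and 0.911 FPKM, against 0.0733, 0.113, 0.0685 and 0.0162 FPKM for METTL3-Flox livers 1 to 4. METTL3-HKD liver 2 came nearest to the METTL3-Flox livers, and the groups did not overlap. The log2 fold change was 2.41 (SE 0.486, adjusted p = 0.0152 from limma). The METTL3-Flox values rest on 1 to 7 reads, and with a pseudocount of 1 FPKM the log2 fold change was 0.80 and the call was lost (adjusted p = 0.0510 from limma).

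Tyrobp, the adaptor of these 3 receptors, did not pass the test (ENSMUSG00000030579, chr7:30413760-30417585, plus strand). For Tyrobp, METTL3-HKD livers 1 to 4 held 76.1, 39.3, 25.4 and 38.0 FPKM, against 36.9, 19.4, 25.1 and 26.3 FPKM for METTL3-Flox livers 1 to 4. METTL3-HKD liver 3 lay among the METTL3-Flox livers. Tyrobp differed by a log2 fold change of 0.65 (SE 0.316, adjusted p = 0.192 from limma), on 209 to 1021 reads per liver.

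Clec4e (Mincle), which binds microbial glycolipids and material from dying cells and signals through Fcer1g, was upregulated (ENSMUSG00000030142, chr6:123281789-123289870, minus strand). For Clec4e, METTL3-HKD livers 1 to 4 held 8.30, 2.64, 2.85 and 3.67 FPKM, against 0.0142, 0.623, 0.0530 and 0.0626 FPKM for METTL3-Flox livers 1 to 4. METTL3-Flox liver 2, with 50 reads, stood apart from the other METTL3-Flox livers, which had 1 to 5 reads, and was still below every METTL3-HKD liver. Clec4e differed by a log2 fold change of 4.23 (SE 0.587, adjusted p = 0.00464 from limma), and 4.82 without METTL3-Flox liver 2 (adjusted p = 0.00249).

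Clec4d (MCL), the lectin that pairs with Clec4e and lies next to it on the opposite strand (ENSMUSG00000030144, chr6:123262111-123275265, plus strand), had the largest log2 fold change of the 10 genes on the log2(FPKM + 0.1) scale. For Clec4d, METTL3-HKD livers 1 to 4 held 34.8, 6.46, 7.82 and 17.3 FPKM, against 0.0880, 1.01, 0.288 and 0.311 FPKM for METTL3-Flox livers 1 to 4. METTL3-Flox liver 2 was again the highest of its group, with 26 reads against 2 to 8 in the others. The means were 16.6 ± 13.04 and 0.423 ± 0.401 FPKM (SD, n = 4 each), and the groups differed by 4.96 on the log2 scale (SE 0.629, adjusted p = 0.00378 from limma).

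Clec4n (Dectin-2), a receptor for fungal mannans that signals through Fcer1g, is the neighbour of Clec4d on the other side (ENSMUSG00000023349, chr6:123229843-123247021, plus strand). For Clec4n, METTL3-HKD livers 1 to 4 held 10.9, 5.18, 4.02 and 5.87 FPKM, against 5.85, 2.35, 3.29 and 2.19 FPKM for METTL3-Flox livers 1 to 4. METTL3-Flox liver 1 reached the level of METTL3-HKD liver 4, so the groups overlapped. The log2 fold change of 0.92 (SE 0.364) did not pass (adjusted p = 0.120 from limma), and without METTL3-Flox liver 1 it was 1.20 and passed (adjusted p = 0.0445).

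Clec7a (Dectin-1), the beta-glucan receptor, which carries its own activating tail, is listed with the biotype polymorphic pseudogene (ENSMUSG00000079293, chr6:129461591-129472779, minus strand). For Clec7a, METTL3-HKD livers 1 to 4 held 14.3, 7.49, 3.84 and 8.44 FPKM, against 4.29, 2.82, 5.91 and 2.94 FPKM for METTL3-Flox livers 1 to 4. METTL3-HKD liver 3 lay below METTL3-Flox livers 1 and 3. The log2 fold change of 0.99 (SE 0.379) did not pass (adjusted p = 0.107 from limma), and without METTL3-HKD liver 3 it was 1.32 and passed (adjusted p = 0.0247).

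Clec4a2 (DCIR), the inhibitory member, showed the smallest difference on this scale (ENSMUSG00000030148, chr6:123106428-123143999, plus strand). For Clec4a2, METTL3-HKD livers 1 to 4 held 2.02, 1.63, 0.832 and 0.938 FPKM, against 1.01, 0.867, 1.42 and 0.743 FPKM for METTL3-Flox livers 1 to 4. The groups overlapped over most of their range. The log2 fold change was 0.34 (SE 0.298, adjusted p = 0.468 from limma). Of the 50-base stretches of its transcripts, 6.83% also occur in other genes, among them Clec4a4 and Clec4b1, so its reads may be shared with them.

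Olr1 (LOX-1), a lectin-like scavenger receptor for oxidised LDL found on endothelium and myeloid cells, lies beside Clec7a (ENSMUSG00000030162, chr6:129485244-129507165, minus strand). For Olr1, METTL3-HKD livers 1 to 4 held 3.81, 1.58, 0.806 and 1.70 FPKM, against 0, 0.0866, 0.0184 and 0 FPKM for METTL3-Flox livers 1 to 4. It was close to absent from METTL3-Flox livers, with 6 reads over all 4, and a count of 0 allows up to 0.0591 and 0.0522 FPKM in livers 1 and 4. Olr1 differed by a log2 fold change of 3.89 (SE 0.428, adjusted p = 0.00241 from limma) on 52 to 274 reads per METTL3-HKD liver.

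The size of the folds is limited by the few METTL3-Flox reads, and each interval given here is an exact 95% interval that covers counting error only, not the spread between mice. The ratio of summed reads per effective library size was 68.0 for Trem1 (interval 43.4 to 113) and 74.2 for Olr1 (33.9 to 203). It was 39.1 for Clec4d (28.9 to 54.1) and 22.8 for Clec4e (17.6 to 30.0). For Clec5a it was 14.7 (8.87 to 26.0) and for Trem3 7.79 (4.48 to 14.6). The lower bounds all stayed above the ratio of 1.71 for Tyrobp (1.59 to 1.84).

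The order of the mean FPKM among the 10 genes, compared per length, also differed between the groups. In METTL3-Flox livers, Tyrobp was the highest at 26.9 ± 7.31, followed by Clec7a (3.99 ± 1.44), Clec4n (3.42 ± 1.69) and Clec4a2 (1.01 ± 0.293), of which Clec7a and Clec4n did not differ beyond their SD. The 6 upregulated genes took the lower 6 ranks, with means from 0.0263 FPKM for Olr1 to 0.423 for Clec4d. In METTL3-HKD livers, Tyrobp was again the highest at 44.7 ± 21.8 and Clec4d was second at 16.6 ± 13.04. Clec7a (8.51 ± 4.32), which was within the SD of Clec4d, Trem1 (6.79 ± 5.57), Clec4n (6.50 ± 3.05) and Clec4e (4.37 ± 2.66) followed, with no step beyond the SD between livers. Olr1 (1.97 ± 1.29), Trem3 (1.74 ± 1.06), Clec4a2 (1.35 ± 0.567) and Clec5a (0.963 ± 0.796) came last, again without a step larger than the SD. This SD is the spread between livers and does not measure differences between genes within a liver. Within each METTL3-HKD liver, Clec4n was above Clec4e and Clec4e was above Olr1. The order of Clec4d, Clec7a, Trem1 and Clec4n varied between these livers.

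Whether the receptors differed by more than the adaptor was asked within each liver, by the log2 ratio of (FPKM + 0.1) to that of Tyrobp, with a two-sided exact permutation test over the 70 arrangements of the livers and adjustment over the 9 genes compared. The ratio was higher in METTL3-HKD livers by 4.31 for Clec4d (SE 0.791), 4.14 for Trem1 (SE 0.328), 3.58 for Clec4e (SE 0.787), 3.24 for Olr1 (SE 0.403) and 1.66 for Trem3 (SE 0.333). For these 5 genes all METTL3-HKD livers lay above all METTL3-Flox livers, and none of the 5 passed after adjustment (exact permutation p = 0.0286, adjusted 0.0514 each). That p is the smallest possible, so whether it passes depends on how many of the 9 ratios do not overlap. The ratio of Clec5a differed by 1.76 with overlap (exact permutation p = 0.0571, adjusted 0.086). The ratios of Clec7a, Clec4n and Clec4a2 differed by 0.34, 0.26 and −0.31, all with overlap. With a pseudocount of 1 FPKM the differences to Tyrobp were smaller, at 2.74 for Clec4d, 1.94 for Trem1, 1.46 for Clec4e, 0.81 for Olr1, 0.45 for Trem3 and 0.16 for Clec5a, and none passed (exact permutation test, adjusted p = 0.0643 for the first 4, 0.257 for Trem3 and 0.6 for Clec5a).

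Csf3r, the receptor for the neutrophil growth factor G-CSF, served as a second reference. It had 7.56 to 15.1 FPKM in METTL3-HKD livers and 0.838 to 1.17 FPKM in METTL3-Flox livers, with a difference of 3.12 on the log2 scale (adjusted p = 0.000511 from limma). Relative to Csf3r, Trem1 was higher in METTL3-HKD livers by 1.67 on the log2 scale (exact permutation test, adjusted p = 0.0476 over 10 genes). Tyrobp, Clec4a2, Clec4n, Clec7a and Trem3 were lower relative to Csf3r by log2 differences of −2.47, −2.78, −2.21, −2.13 and −0.82, each without overlap and with the same adjusted p from the exact permutation test. Here 6 of 10 ratios did not overlap, against 5 of 9 for Tyrobp, and all had the smallest possible exact p. Passing relative to Csf3r and not to Tyrobp is therefore no contrast in the size of the differences. Clec4d, Clec4e, Olr1 and Clec5a differed from Csf3r by 1.84, 1.11, 0.77 and −0.71, each with overlap. With a pseudocount of 1 FPKM the difference of Trem1 fell to 0.17 and no longer passed, and those of Clec4e and Olr1 turned to −0.31 and −0.96. These differences hold for Csf3r as the reference, and not for neutrophil markers in general. The log2 fold change of Trem1 was 4.79. Of the other neutrophil markers called higher, Retnlg, S100a9, S100a8 and Cxcr2 had log2 fold changes of 4.79, 4.68, 4.44 and 4.06. Mmp8, Il1r2 and Mmp9 had 3.83, 3.75 and 3.34, and Ly6g and Hdc were below Csf3r. Ratios to these markers were not tested.

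**Figure D2:**
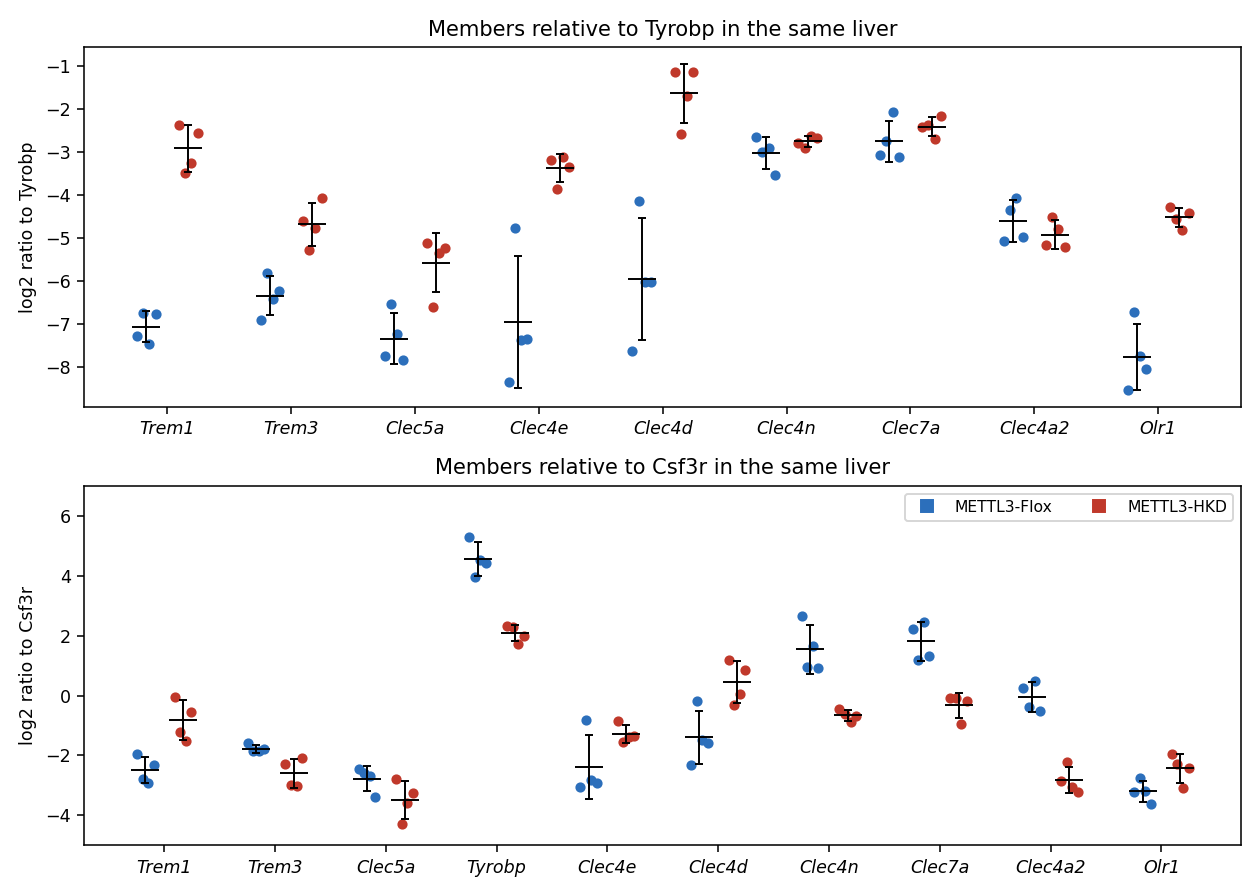
Log2 ratio of each gene to Tyrobp (upper panel) and to Csf3r (lower panel) within each liver, with METTL3-Flox in blue, METTL3-HKD in red, and the mean with the SD in black (n = 4 per group). Relative to Tyrobp, the red points of Trem1, Trem3, Clec4e, Clec4d and Olr1 lie above all blue points, and relative to Csf3r, those of Trem1 lie above and those of Tyrobp, Trem3, Clec4n, Clec7a and Clec4a2 lie below.

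Markers of several cell types also differed between the groups. Of 13 tested neutrophil markers 10 were higher in METTL3-HKD mice, among them S100a9 (403 against 13.9 FPKM), S100a8 (223 against 9.33) and Retnlg (64.5 against 2.02). Ngp, Camp and Elane were not called, Elane having 0.791 against 1.20 FPKM, and Ltf and Mpo were under the filter. S100a8 and S100a9 made up most of the neutrophil sum in every liver. The summed neutrophil marker FPKM was 342 to 1669 in METTL3-HKD livers and 15.8 to 50.2 in METTL3-Flox livers, and METTL3-HKD liver 1, the highest for all 10 receptor genes, was also the highest here. METTL3-Flox liver 2, with the high Clec4e and Clec4d of its group, had a neutrophil sum of 29.6, within the range of the other METTL3-Flox livers. Single neutrophil markers varied there, with Csf3r the highest of the group (1.17 FPKM) and Retnlg the lowest (0.417 FPKM). METTL3-Flox liver 1 had the highest neutrophil sum of its group, at 50.2. It also had the lowest Clec4d and Clec4e of all livers, at 0.0880 and 0.0142 FPKM, on only 2 and 1 reads. Its Csf3r, at 0.838 FPKM, was the lowest of its group. Of 10 monocyte markers 4 were higher, with a summed FPKM of 35.0 to 123 against 13.4 to 25.8, led by Chil3 (37.2 against 1.93 FPKM). Among METTL3-Flox livers, these 4 were all highest in liver 2, at 3.75 (Chil3), 0.696 (Ccr2), 0.634 (F13a1) and 0.137 FPKM (Vcan). The monocyte sum of that liver was 19.7, within the range of the other METTL3-Flox livers. None of 12 Kupffer cell markers was higher and 4 were lower, with sums of 152 to 296 against 294 to 681, among them Cd5l (39.4 against 101 FPKM). None was lower without METTL3-HKD liver 4 or METTL3-Flox liver 3 or 4, and 1 without METTL3-HKD liver 3 or METTL3-Flox liver 1, and the call of Cd5l held only without METTL3-HKD liver 2 or METTL3-Flox liver 2 among these fits. Pan-leukocyte markers summed to 39.7 to 132 against 28.6 to 40.2 FPKM, with 2 of 6 higher (Coro1a and Ptprc), 4 without METTL3-HKD liver 3 and 1 without any other single liver. The part of these markers in the receptor differences was not tested.

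Of the other marker lists, 0 of 10 hepatocyte markers were called, with sums of 27128 to 38545 against 35096 to 41041 FPKM, so the tissue matched its label. None of the lists of sinusoidal endothelium (7 tested), T and NK cells (4) and B cells (3) held a called gene. Dendritic cells (1 of 9, Itgax) and platelets (1 of 4, Ppbp) held 1 higher gene each, and stellate cells (5 tested) held 1 higher (Des) and 1 lower (Colec11). When single livers were left out, the call of Itgax was lost in 6 of 8 fits (METTL3-HKD 1, 2 and 4, METTL3-Flox 1, 2 and 3), that of Ppbp in 4 (METTL3-HKD 1 and 4, METTL3-Flox 3 and 4) and that of Des in 6 (METTL3-HKD 1 and 3 and each METTL3-Flox liver). Of 5 erythroid markers 4 were higher under every alternative, with sums of 185 to 597 against 48.2 to 107 FPKM. Of 5 cholangiocyte markers 4 were higher, and 2 without METTL3-HKD liver 1 or 2 or without METTL3-Flox liver 2, 3 or 4. Mettl3 itself had 1.33 ± 0.181 against 1.50 ± 0.282 FPKM (SD, n = 4 each; log2 fold change −0.16, adjusted p = 0.556 from limma), so its level over the whole gene did not check the genotype. Reads on genes numbered 15861245 to 18434488 per library.

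Most of the receptor genes lie in 3 chromosomal clusters, and in each cluster some tested genes passed and others did not. In the Dectin-2 cluster of chromosome 6, the genes run Clec4a1, Clec4a3, Clec4b1, Clec4a2, Clec4n, Clec4d and Clec4e among those tested, with log2 fold changes of −0.04, −0.25, −1.34, 0.34, 0.92, 4.96 and 4.23. The pair at one end passed the test and the other 5 did not. Clec4a4 and Clec4b2 were under the filter of a mean of 0.1 FPKM.

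In the Dectin-1 cluster, Olr1 was the one gene called higher and lies at its end. Its neighbour Clec7a had a log2 fold change of 0.99, and Clec1a, Clec9a, Clec1b and Clec12a had −0.39, −0.93, −0.66 and −0.89. Clec2d, a ligand of an NK cell receptor, was called lower, at 24.7 against 52.8 FPKM (log2 fold change −1.18, adjusted p = 0.043 from limma). This call was lost in 7 of the 8 fits that left out a liver, all but that without METTL3-HKD liver 3, and also with no minimum, with no trend and when libraries were scaled by their gene reads.

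In the Trem cluster of chromosome 17, Trem1 and Trem3 lie side by side and both rose. Treml2 was also called higher, at 0.575 against 0.170 FPKM (log2 fold change 1.30, adjusted p = 0.0218 from limma), and 2 of the 3 were called without METTL3-HKD liver 1 or 2 or without METTL3-Flox liver 2. Treml4 and Trem2, the latter a lipid-sensing Tyrobp partner of tissue macrophages, had −0.45 and −0.41 and were not called.

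**Figure D3:**
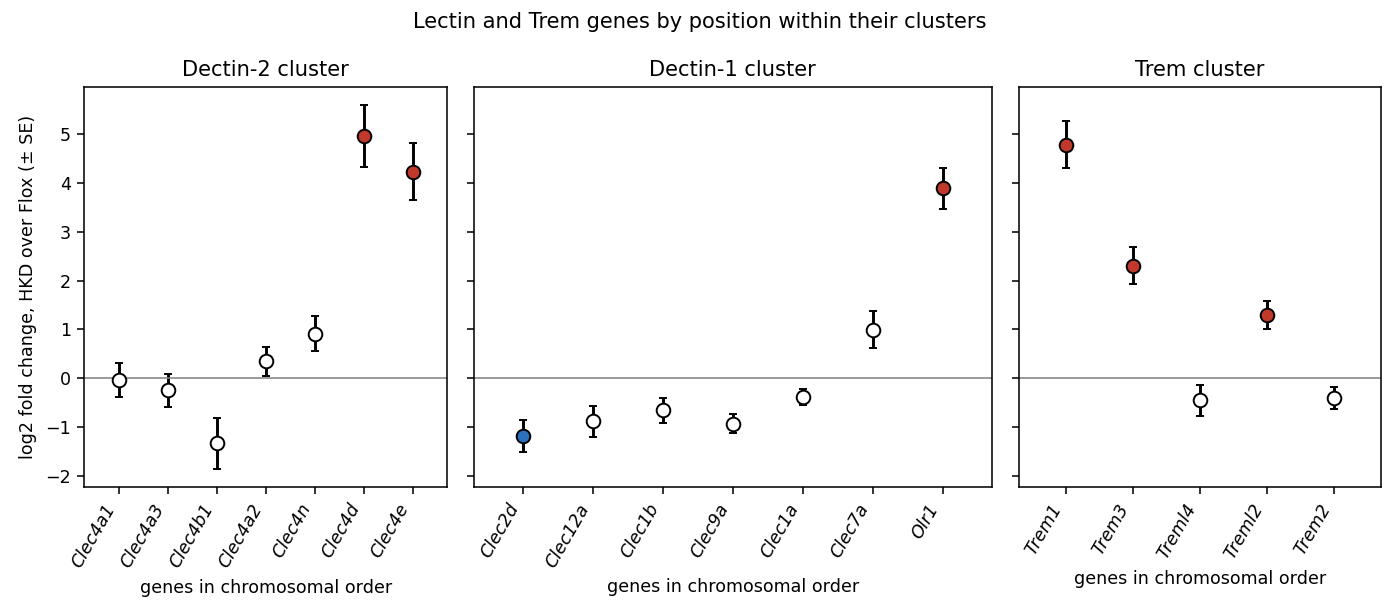
Log2 fold change of METTL3-HKD over METTL3-Flox with its SE for the tested lectin and Trem genes of 3 chromosomal clusters, drawn in chromosomal order without scale. Red points were called higher, the blue point lower, and white points were not called. Clec4d and Clec4e at one end of the Dectin-2 cluster reach 4.96 and 4.23, Olr1 at the end of the Dectin-1 cluster 3.89, and Trem1 4.79.

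Downstream of the receptors, 0 of 3 adaptors and 4 of 23 signalling genes were called higher. Fcer1g, the adaptor of Clec4e, Clec4d and Clec4n, had 24.1 against 16.3 FPKM (log2 fold change 0.54, adjusted p = 0.214 from limma), and Hcst, which couples to PI3 kinase, had 0.38, and neither passed. The Syk and Card9 signalling genes had a median log2 fold change of 0.67 against −0.00 over all tested genes. Those called were Syk (1.10), the Src family kinase Fgr (1.11), Lat2 (1.35) and the inflammasome sensor Nlrp3 (2.19). The count was 1 without METTL3-HKD liver 1 or without METTL3-Flox liver 3, 2 without METTL3-HKD liver 2 or 4 or without METTL3-Flox liver 4, and 6 without METTL3-HKD liver 3. Of those called, Nlrp3 kept its call in all 8 fits that left out a liver and Syk lost it in 7. Card9 (0.77) and Lyn (−0.00) were not called.

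Of 11 tested cytokine, chemokine and related genes known to be induced by this pathway, 9 were called higher, with a median log2 fold change of 3.41 on the list. They included Cxcl2 (35.9 against 0.279 FPKM), Ccl4 (18.5 against 0.387), Il1b (34.1 against 1.83) and Ptgs2 (4.27 against 0.0171). Tnf, Il6, Ccl2, Ccl3 and Csf3 were the others, and Csf3 was listed at 0 in all METTL3-Flox livers. Csf3 and Ptgs2 therefore passed the filter of a mean of 0.1 FPKM only through their METTL3-HKD values. Cxcl1 (58.0 against 55.3 FPKM) and Il1a (2.20 against 2.23) were not called. These genes also respond to other pathways.

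Among the ligands, Pglyrp1, a neutrophil granule protein that binds Trem1, was higher at 2.83 against 0.178 FPKM (log2 fold change 3.36), and Anxa1, a lectin ligand on dying cells, at 7.13 against 1.68 FPKM (1.94). Hmgb1 (−0.06), Sap130 (−0.08), a nuclear ligand of Clec4e, and Anxa5 (−0.03) were not called, and Lgals9, a galectin, had −0.77 and passed on the adjusted p alone (0.0116 from limma). Of 12 other receptors coupled to Tyrobp 4 were higher, namely Cd300lb (1.52), Sirpb1a (1.73), Sirpb1b (1.62) and Sirpb1c (1.62). The Sirpb1 genes are close copies of each other, so their reads may be shared. The call of Cd300lb was lost whichever of the 4 METTL3-Flox livers was left out, and with a pseudocount of 1 FPKM 0 of the 12 were called. Of 10 inhibitory myeloid receptors 2 were higher, Lilrb4a (3.03) and Cd300lf (3.05), and the others ranged with Clec4a2 around a list median of 0.18.

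Among 15 tested C-type lectin receptors outside the clusters, Cd93 (1.66) and Clec5a were higher and Clec4f (−1.31), a Kupffer cell lectin, was lower. The call of Clec4f was lost in 7 of the 8 fits that left out a liver, all but that without METTL3-HKD liver 2, and also with no minimum, with no trend and when libraries were scaled by their gene reads. Of 14 scavenger receptors Olr1 was the one gene called, with a list median of −0.16. Marco (−0.29), Msr1 (−0.12) and Cd36 (0.53) were not called.

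**Figure D4:**
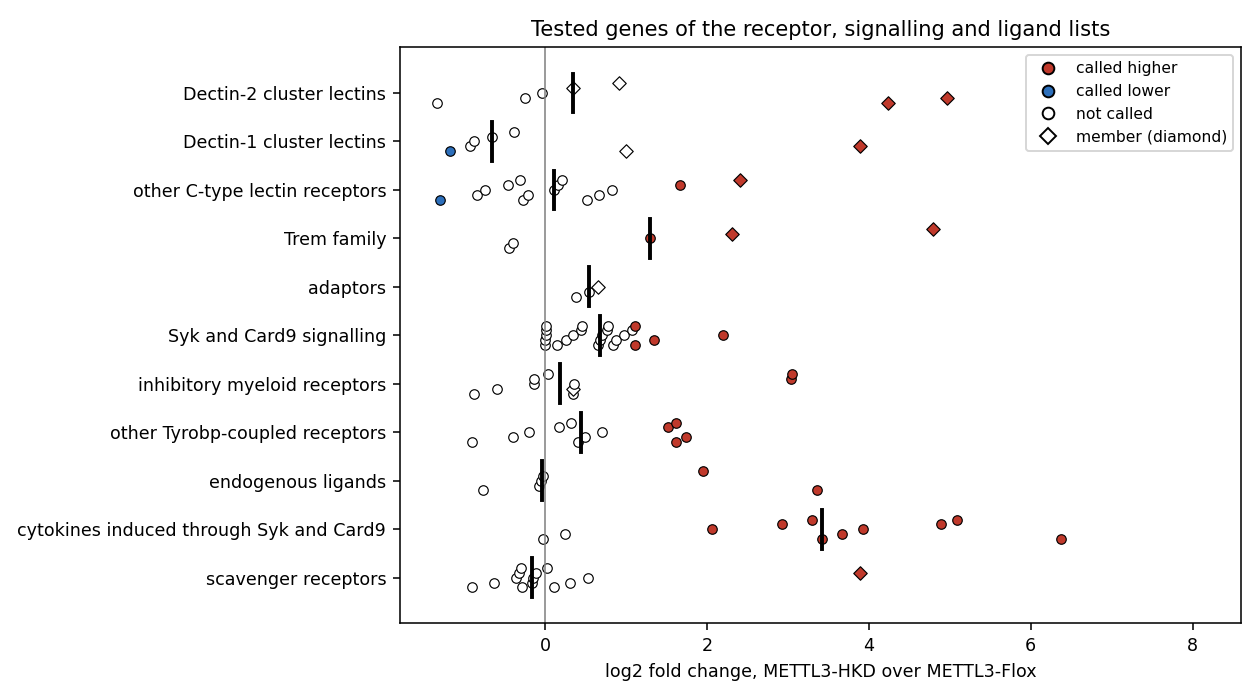
Log2 fold change of METTL3-HKD over METTL3-Flox for each tested gene of 11 lists, with red for genes called higher, blue for genes called lower, white for the others, diamonds for the 10 receptor and adaptor genes and a black bar at the list median. The cytokine list has its median at 3.41 and the Syk and Card9 list at 0.67, and Olr1 is the one called scavenger receptor.

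METTL3-HKD liver 1 was the highest of the 8 livers for all 10 genes. The next METTL3-HKD liver was liver 4 for 8 of them and liver 2 for Tyrobp and Clec4a2. After the group means were removed, the 15 pairs of the 6 called genes correlated with r from 0.40 to 0.93 (median 0.76) over the 8 livers, and the other 30 pairs from −0.01 to 0.89 (median 0.59). The pooled values did not hold alike in each group. Within the METTL3-HKD livers, 0 of all 45 pairs correlated negatively, and within the METTL3-Flox livers 24 of 45 did, 5 of them among the 15 pairs of called genes. METTL3-Flox livers held only 2 to 7 reads of Trem1, 3 to 4 of Trem3, 1 to 7 of Clec5a and 0 to 5 of Olr1. Counting error alone could set the signs of these genes there. With 4 livers per group and one set of libraries, these signs are a description, and they were not tested.

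The tested genes outside the set whose deviations were most like the mean deviation of the 6 called genes over 8 livers were Pstpip1 (r = 0.995), Gm49226 (0.989), Emp1 (0.987), Ltb4r1 (0.979) and Gm17281 (0.978). Without METTL3-HKD liver 1, r was 0.990, 0.985, 0.979, 0.970 and 0.977. These genes were picked as the highest r among all tested genes, over 8 livers only, so high values follow in part from the choice. The values without METTL3-HKD liver 1 are for genes already chosen with it and are no independent check. The likeness is a description and was not tested. Pstpip1, a cytoskeletal adaptor of leukocytes, Emp1, a membrane protein, and Ltb4r1, the leukotriene B4 receptor, were called higher, with log2 fold changes of 1.87, 2.25 and 1.72. The call of Ltb4r1 was lost in 6 of the 8 fits that left out a liver, all but those without METTL3-HKD liver 2 or 3, and that of Pstpip1 in 3 (METTL3-HKD 4, METTL3-Flox 3 and 4). Gm49226 and Gm17281 were not called.

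All 6 called genes were still called without METTL3-HKD liver 1, with log2 fold changes of 4.50 for Clec4d, 4.31 for Trem1, 3.88 for Clec4e, 3.52 for Olr1, 1.99 for Trem3 and 1.97 for Clec5a. No exon base of any of the 10 genes is shared with another gene of the annotation.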

How the data were processed

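Livers of 4 METTL3-HKD and 4 METTL3-Flox mice were grouped by their labels. The authors deposited FPKM for 54532 genes, already scaled between libraries. Per the labels, a SMARTer mRNA-Seq kit was used and the submitters' processing notes name GRCm38 and mm10. The aligner, the counter and the strand setting are not given in the sources used here. Reads were rebuilt from FPKM, gene length and an effective size of each library, and 100% of the values above 0 came out whole (tolerance 0.02).

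Genes whose mean reached 0.1 FPKM were compared on log2(FPKM + 0.1) with limma 3.58.1 in R 4.3.3 (two-sided, mean-variance trend). The method was tested on simulated data, with the same spread between livers set for every gene. No change was set in genes with as few expected METTL3-Flox reads as Trem1, Trem3, Clec5a and Olr1, so that case was not covered. Exact permutation tests used scipy 1.17.1. The labels name each library by mouse, so p-values measure the spread between these 8 mice.

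The 10 genes and the lists were chosen with earlier results of these data known. Named were the 10 genes, list genes that were called or among the highest 3 of their list, Mettl3, the leading markers and the 5 most similar genes. Other list genes without a call were named after their values were seen. The 15 alternatives were a pseudocount or minimum of 1 FPKM, no minimum, no trend, a replicate block, scaling to the reads on genes, voom on the rebuilt reads, and leaving out each of the 8 livers. Some single items are not reported here.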

Additional observations from a re-analysis of the deposited data

Results flagged for a closer look

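Clec4e in METTL3-Flox liver 2, at 0.623 FPKM, lay far from the other METTL3-Flox livers, which had 0.0142 to 0.0626 FPKM. It was 1 of 20 sets of 4 livers examined in this way, of which chance marks about 1 in 20. Clec4d was also the highest of its group in that liver, at 1.01 FPKM. Without the liver, the log2 fold changes of Clec4e and Clec4d were 4.82 and 5.42 (adjusted p = 0.00249 and 0.00632 from limma).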

How the results depend on the processing

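Over 15 alternatives, 4 to 7 of the 10 genes were called higher and 0 lower. The count was 4 of 8 tested at a minimum mean of 1 FPKM, where Trem3 and Clec5a were not tested, 5 with a pseudocount of 1 FPKM, and 7 without METTL3-Flox liver 1 (Clec4n added) or METTL3-HKD liver 3 (Clec7a added). Of 88 values for the 6 called genes, 87 remained called, the exception being Clec5a with a pseudocount of 1 FPKM. Relative to Csf3r, that pseudocount turned Clec4e to −0.31 and Olr1 to −0.96 (adjusted exact permutation p = 0.0408 for Olr1), moved Clec5a to −1.60 so that it passed, and moved Trem1 to 0.17 so that it did not. A larger pseudocount shrinks the folds of low genes by construction. Among all genes, 782 were called higher and 253 lower; the counts were 317 and 88 with a pseudocount of 1 FPKM and 450 higher at a minimum mean of 1 FPKM. Without a minimum 163 were lower. Leaving out 1 liver gave 492 to 960 higher and 94 to 341 lower. Scaling to the reads on genes gave 1043 and 133 and moved the median over all genes from −0.00 to 0.20 on the log2 scale. Under that scaling the same 6 genes were called, with log2 fold changes from 2.48 for Trem3 to 5.14 for Clec4d, against that shift.

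Same-numbered livers showed no sign of pairing, with correlations of their deviations of 0.071, −0.084, −0.013 and −0.034. These values cannot show that no pairing exists, and the litter of each sequenced mouse is not given in the sources used here. With a replicate block 616 genes were called higher and 200 lower, and 6 of the 10 genes were called. The ratios could not be tested with 1 liver left out, since the smallest exact p is then 0.0571. A limma fit on the ratios, tried after the values were seen, passed more of them and is not used, since all genes then share the noise of the reference gene and the p-values are too small. Few METTL3-Flox reads limit the folds of Trem1, Trem3, Clec5a and Olr1, and whole livers do not separate cell number from expression per cell.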
